A study of Mus musculus with 4 samples.

Results

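The Dppa genes (developmental pluripotency associated) are a set of 5 genes, Dppa1, Dppa2, Dppa3, Dppa4 and Dppa5a, that share a name for their expression in early embryos and pluripotent cells and are not all related in sequence. They were taken by their gene symbols in the platform annotation, and each had 1 probe set, so they account for 5 of 41345 probe sets. The cells were mouse embryonic stem cells that lacked Prdm14 in every group and were grown in 2i and LIF medium over a layer of STO fibroblasts. Into these knockout cells had been put sea urchin PRDM14 with sea urchin CBFA2T, sea urchin PRDM14 alone, mouse PRDM14, or an empty vector. Each group had 1 array, all 4 of strip 2, and the labels do not say how many clones or cultures stand behind an array. The values below therefore come without a replicate error and without a test, and precision is limited by having so few arrays.

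DPPA2 and DPPA4 are DNA-binding proteins with a SAP domain that act as a pair on chromatin; their genes lie side by side. In mouse embryonic stem cells the pair is known to keep certain promoters free of DNA methylation and to activate Dux, and through it Zscan4 and other genes of the 2-cell embryo. DPPA3, also called Stella or PGC7, is a maternal and germ cell protein that binds UHRF1 and limits the maintenance of DNA methylation. DPPA5A, also called ESG1, is an RNA-binding protein with a KH domain. PRDM14 is a zinc finger protein of the PR domain family that acts in naive pluripotent cells and primordial germ cells, and CBFA2T2, the mouse relative of the sea urchin CBFA2T protein, is its co-repressor partner.

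All values are log2 values made by the authors with RMA, and differences are log2 differences between 2 arrays, where 1 is 2-fold. A gene was taken as measurable when at least 1 array gave it 4.84 or more, which is the median over all probe sets with a gene name, and 12042 of 22180 named genes passed. Dppa2, Dppa3, Dppa4 and Dppa5a passed on all 4 arrays, and Dppa1 on none. The 4 arrays correlated at Pearson's r of 0.986 to 0.989 across all probe sets, and their medians were 4.54 to 4.55. All 12 embryonic stem cell markers examined were above 4.84 on every array, among them Pou5f1 at 6.51 to 6.61. Prdm14 itself was at 5.53 with sea urchin PRDM14 and CBFA2T, 5.77 with sea urchin PRDM14, 5.57 with mouse PRDM14 and 5.71 with the empty vector. It did not tell the groups apart, and the place of its probes relative to the deletion was not examined. Group names below mean the array labelled so.

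Dppa2 was the member that set 1 array apart. It was at 9.02 on the array with sea urchin PRDM14 and CBFA2T, against 7.66 with sea urchin PRDM14 alone, 7.55 with mouse PRDM14 and 7.62 with the empty vector. The last 3 values lay within 0.12 of each other, and the CBFA2T array was 1.35 above the nearest of them. In fold terms Dppa2 was 2.55-fold higher than with sea urchin PRDM14 alone, 2.77-fold higher than with mouse PRDM14 and 2.63-fold higher than with the empty vector. These 3 comparisons share the CBFA2T array, so they are not separate observations of the difference.

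**Figure D1:**
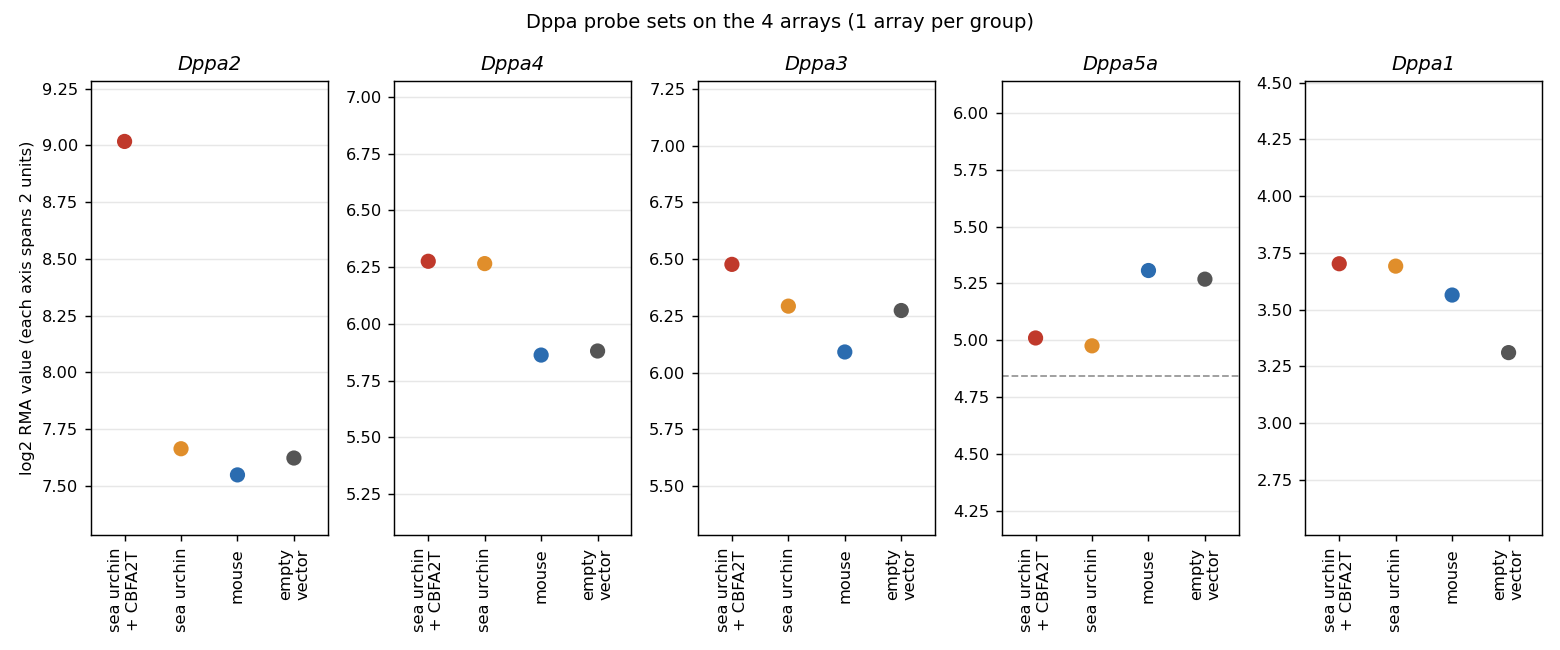
Each panel plots the log2 RMA value of 1 Dppa probe set (vertical axis, spanning 2 log2 units in every panel) on the 4 arrays, 1 point per array. The dashed line in the Dppa5a panel is the filter value of 4.84, and Dppa2 stands at 9.02 on the CBFA2T array against 7.55 to 7.66 on the other arrays.

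Of the 5 members 1, Dppa2, was past 2-fold for the CBFA2T array against sea urchin PRDM14 alone, where 0.183% of the 12042 genes were past 2-fold in either direction. The count was also 1 of 5 against mouse PRDM14, beside 0.183% of genes, and 1 of 5 against the empty vector, beside 0.208% of genes. Only 13 of the 12041 other measurable genes had a more positive difference than Dppa2 against sea urchin PRDM14 alone, 9 against mouse PRDM14 and 12 against the empty vector. In the comparisons without the CBFA2T array, 0 of 5 members were past 2-fold. With the empty vector as the base, the share of genes past 2-fold was 0.0332% for sea urchin PRDM14 and 0.083% for mouse PRDM14, and it was 0.0581% for sea urchin against mouse PRDM14. Dppa2 differed by 0.04, -0.07 and 0.12 in these 3 comparisons, inside the central 95% of all genes each time.

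**Figure D2:**
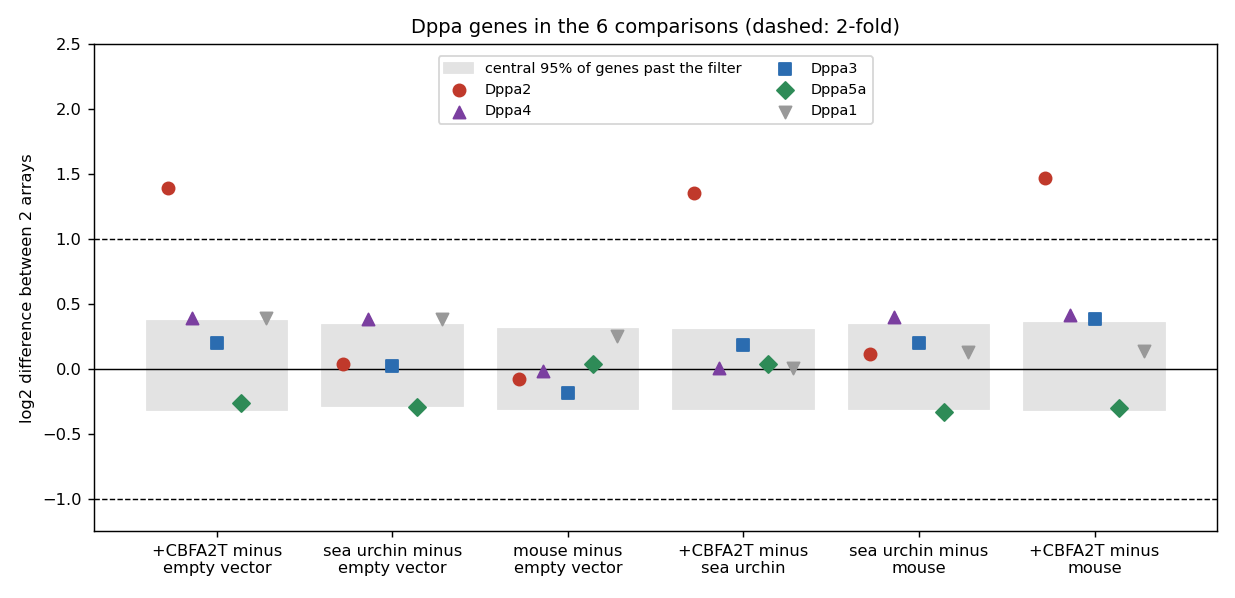
The log2 difference of each Dppa gene (vertical axis) is plotted for the 6 comparisons between arrays (horizontal axis), over a grey band that holds the central 95% of the 12042 measurable genes. Dppa2 lies at 1.35 to 1.47 in the 3 comparisons of the CBFA2T array, and no other point passes the dashed 2-fold lines.

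Few genes separated the CBFA2T array from all others as Dppa2 did. On that array 12 of 12042 genes, or 0.0997%, were at least 2-fold above each of the other 3 arrays. The same count was 0 on the array with sea urchin PRDM14, 0 with mouse PRDM14 and 0 with the empty vector. Of the 12 genes, 4 were above 4.84 on all 4 arrays, so that their differences do not start from values below the filter. They were Dppa2, Zscan4c, the predicted gene Gm2022 and Calcoco2, which encodes an autophagy receptor. Their smallest differences from another array were 1.35 for Dppa2, 1.59 for Zscan4c, 1.52 for Gm2022 and 1.14 for Calcoco2. Zscan4c was at 5.10 with the empty vector, not far above the filter value. It has close copies in the genome, and how signal divides among such copies on this array was not tested.

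The neighbour and partner gene Dppa4 followed a different pattern. It was at 6.28 with sea urchin PRDM14 and CBFA2T and 6.27 with sea urchin PRDM14 alone, against 5.86 with mouse PRDM14 and 5.88 with the empty vector. Both arrays with the sea urchin protein were above both others, and with and without CBFA2T they differed by only 0.01, whose sign turns with median centring. Against the empty vector Dppa4 differed by 0.39 (1.31-fold) with CBFA2T, by 0.38 (1.31-fold) with sea urchin PRDM14 alone and by -0.02 with mouse PRDM14. Between the 2 sea urchin arrays Dppa2 differed by 1.35.

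None of the Dppa4 differences reached 2-fold or 1.5-fold. Against the empty vector, 3.19% of measurable genes had a larger absolute difference than Dppa4 on the CBFA2T array and 2.27% on the array with sea urchin PRDM14 alone. Against mouse PRDM14, Dppa4 was higher by 0.41 with CBFA2T and by 0.40 without, where 2.43% and 2.37% of genes had larger absolute differences. The 2 empty vector comparisons share the empty vector array, and those with mouse PRDM14 share the mouse array.

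The genes around the pair showed no like shift. The 3 nearest measured genes on each side of Dppa4 and Dppa2 on chromosome 16, by the order in the GRCm38.p6 annotation, were Plcxd2, Cd96 and Nectin3 on the Dppa4 side. On the Dppa2 side they were Gm5485, Morc1 and Trat1. On the CBFA2T array against the empty vector these 6 genes differed by -0.13 to 0.16, with 3 above 0 and 0 past 2-fold. Only Plcxd2 (0.16) and Morc1 (-0.06), a gene of germline transposon silencing, were measurable. On the array with sea urchin PRDM14 alone the 6 genes differed by -0.25 to 0.04.

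Across chromosome 16, the 357 measurable genes other than Dppa2 and Dppa4 had a median difference of 0.07 on the CBFA2T array against the empty vector. With sea urchin PRDM14 alone the median was -0.01 and with mouse PRDM14 -0.01. None of the 357 was past 2-fold in any of the 6 comparisons. Chromosome 11, which holds Dppa1 and Calcoco2, had medians of 0.07 with CBFA2T and 0.06 with sea urchin PRDM14 alone over 1067 measurable genes, and -0.00 with mouse PRDM14. Over all measurable genes these medians were 0.01, 0.01 and -0.01. Of the 1067 genes, 5 were past 2-fold with CBFA2T against the empty vector, all higher, beside 0.208% of all measurable genes. With sea urchin PRDM14 alone 1 was past 2-fold, and with mouse PRDM14 0 were. The part of such shifts in the values of single genes was not tested.

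**Figure D3:**
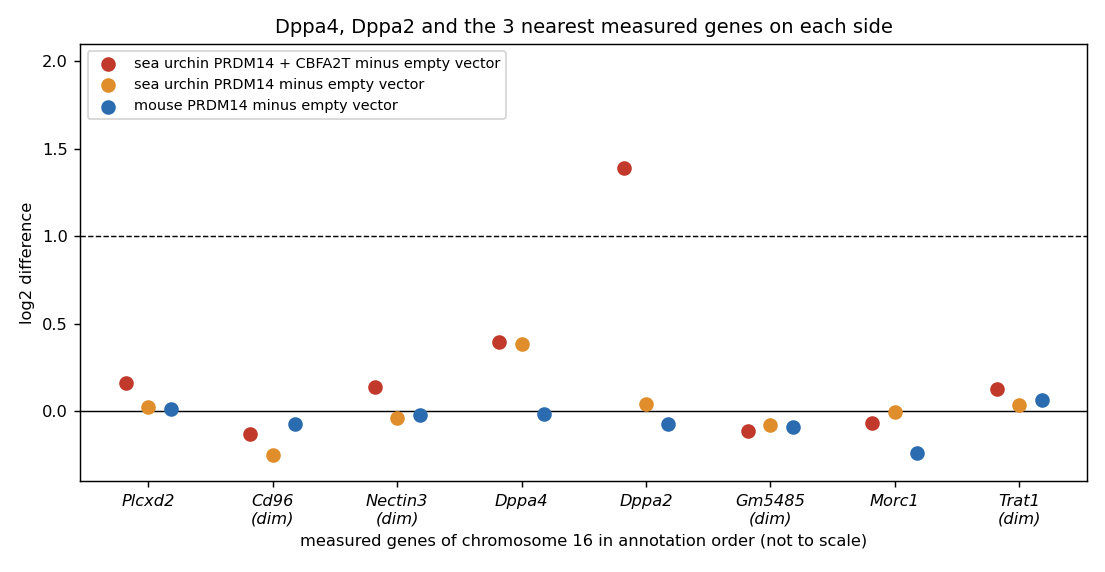
Log2 differences from the empty vector array (vertical axis) are shown for Dppa4, Dppa2 and the 3 nearest measured genes on each side, in the order of the annotation (horizontal axis, not to scale), with 1 colour per array and dim genes marked. Dppa2 reaches 1.39 on the CBFA2T array only, Dppa4 lies near 0.39 on both sea urchin arrays, and the 6 neighbours lie between -0.25 and 0.16.

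Dppa5a was the member that was lower with the sea urchin protein. It was at 5.01 with sea urchin PRDM14 and CBFA2T and 4.98 with sea urchin PRDM14 alone, against 5.31 with mouse PRDM14 and 5.27 with the empty vector. Both sea urchin arrays were below both other arrays. Against the empty vector Dppa5a differed by -0.26 with CBFA2T, by -0.29 with sea urchin PRDM14 alone and by 0.04 with mouse PRDM14. Larger absolute differences were seen in 11.1%, 6.02% and 77.6% of measurable genes. All 4 values lie less than 0.5 above the filter value, and whether differences at this level are pulled toward 0 was not tested. Dppa5a also has annotated pseudogenes, Dppa5b and Dppa5c, on chromosome 9, and whether its probes read them too was not tested.

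No neighbour of Dppa5a and no listed gene of KH domain or egg subcortical complex proteins was past 2-fold. Ooep, the next measured gene on chromosome 9 and a KH domain protein of the egg, was at 6.26 with CBFA2T, 6.15 with sea urchin PRDM14, 6.24 with mouse PRDM14 and 6.12 with the empty vector. The 6 neighbours of Dppa5a, of which only Ooep was measurable, differed from the empty vector by -0.07 to 0.29 on the CBFA2T array. A list of 9 genes of KH domain and egg subcortical complex proteins held 4 measurable genes. Of the 9, 0 were past 2-fold in any comparison. The measurable gene with the largest difference was Tle6, a gene of that complex, at 0.30 for the CBFA2T array against mouse PRDM14.

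Dppa3, at most 1.31-fold apart between any of the arrays, was at 6.48 with sea urchin PRDM14 and CBFA2T, 6.29 with sea urchin PRDM14 alone, 6.09 with mouse PRDM14 and 6.27 with the empty vector. The CBFA2T array was highest and the mouse PRDM14 array lowest, and they differed by 0.39, beside 3.11% of measurable genes with a larger absolute difference. Sea urchin PRDM14 alone and the empty vector differed by 0.02. Against the empty vector, Dppa3 differed by 0.20 with CBFA2T and by -0.18 with mouse PRDM14, and 19.0% and 19.7% of genes had larger absolute differences.

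Dppa3 lies between Gdf3, a TGF-beta family ligand gene, and Nanog, a core pluripotency gene, on chromosome 6. Nanog was at 9.28 with CBFA2T, 8.75 with sea urchin PRDM14, 8.99 with mouse PRDM14 and 9.07 with the empty vector. The CBFA2T array was highest for Nanog too, but its lowest array was sea urchin PRDM14 alone, unlike Dppa3. Gdf3 lay between 6.46 and 6.56 on all arrays. Of the DNA methylation genes, which include the partner of DPPA3, 0 of 9 measurable members were past 2-fold in any comparison. Uhrf1 was at 7.52 with CBFA2T, 7.29 with sea urchin PRDM14, 7.53 with mouse PRDM14 and 7.59 with the empty vector. Dnmt3b, a de novo DNA methyltransferase gene, had the largest difference of the list. It was higher by 0.59 with sea urchin PRDM14 than with mouse PRDM14, the comparison in which Dppa3 was higher by 0.20.

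Dppa1 was dim on every array. It was at 3.70 with sea urchin PRDM14 and CBFA2T, 3.69 with sea urchin PRDM14 alone and 3.56 with mouse PRDM14, against 3.31 with the empty vector, all more than 1 below the filter value. The empty vector array was the lowest, and the other arrays were above it by 0.39, 0.38 and 0.25. No background level was estimated, and whether Dppa1 was detected at all was not tested. The 6 nearest measured genes on chromosome 11 were dim as well and differed from the empty vector by -0.25 to 0.14 on the CBFA2T array and by -0.25 to 0.26 with sea urchin PRDM14 alone.

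Setting both sea urchin PRDM14 arrays against the other 2 arrays, the groups did not overlap for any of the 5 members, or for any of the 4 measurable ones. This was so for 37.3% of all measurable genes, 20.6% with both sea urchin arrays higher and 16.6% with both lower. For Dppa2 and Dppa3 the gap between the groups was only 0.04 and 0.02, so for these members the count says little. For Dppa4 the gap was 0.38, and 19 of the 12041 other measurable genes had a larger gap in the same direction. For Dppa5a it was -0.26, and 26 genes had a larger gap downward. This grouping was added after the values were seen, and the array with CBFA2T and the array without it each entered once.

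Genes with the profile most like that of Dppa2 were found by the root mean square distance between log2 values over the 4 arrays, each gene centred on its own mean. The nearest of the 12041 genes was Calcoco2, at a distance of 0.12, where the median gene was at 0.61. It was at 6.96 with sea urchin PRDM14 and CBFA2T, against 5.60 with sea urchin PRDM14, 5.69 with mouse PRDM14 and 5.82 with the empty vector. After it came Usp17le (0.15), of a deubiquitinase family, Pramel19 (0.18), of the PRAME-like family, Cwc22 (0.22), a splicing factor gene, and H2ac1 (0.23), a histone H2A gene. Usp17le and Pramel19 were measurable only through the CBFA2T array, at 5.82 and 5.44 there. Cwc22 and H2ac1 were not past 2-fold against the empty vector, at 0.96 and 0.93. With 4 arrays, likeness means little more than a shared high value on the CBFA2T array. The 5 genes lie on chromosomes 11, 7, 4, 2 and 13, none of them on chromosome 16.

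**Figure D4:**
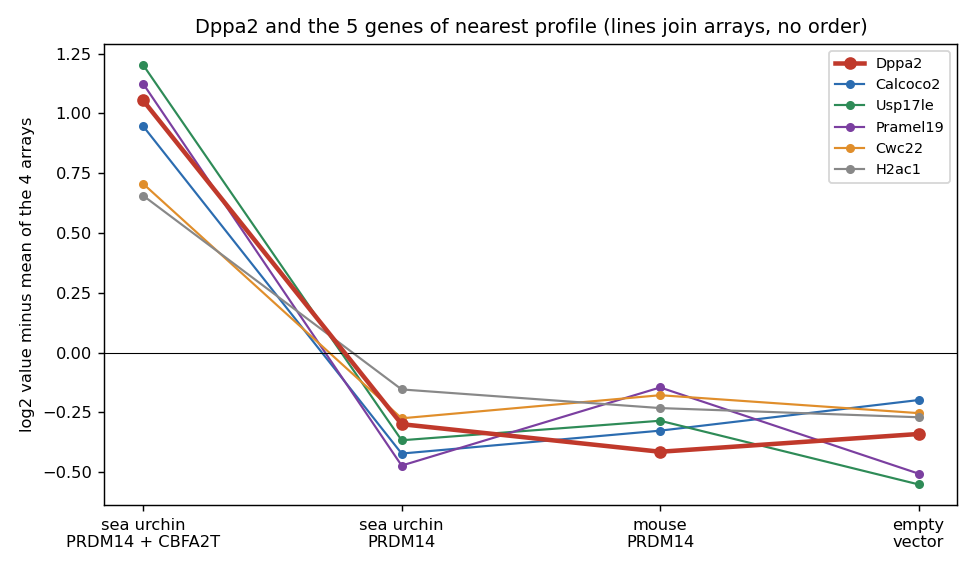
Log2 values of Dppa2 and the 5 genes of nearest profile, each minus its own mean over the 4 arrays (vertical axis), are plotted by array (horizontal axis, lines only join the points of a gene). All 6 genes are highest on the CBFA2T array, and the remaining arrays lie below the mean.

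Some of the genes of the 2-cell stage were at least 2-fold higher on the CBFA2T array and others were not. The list of these genes was chosen with earlier results of these data known, so its counts are not a test. Of 18 measured genes of that list, dim ones included, 5 were at least 2-fold higher with CBFA2T than with sea urchin PRDM14 alone, beside 0.0812% of all 22180 named genes. The other 13 were not past 2-fold, and the list median was 0.38 beside 0.00 over all named genes. Against the empty vector 5 were at least 2-fold higher, with a median of 0.43, beside 0.0947% of all named genes. Against mouse PRDM14 6 were at least 2-fold higher, beside 0.0812%. Differences above 0 of any size were found for 15 of the 18 against the empty vector and for 15 against mouse PRDM14. Against sea urchin PRDM14 alone 12 were above 0. The shares of measurable genes above 0 were 51.6%, 52.9% and 49.9% in these comparisons, in that order. These shares leave out dim genes, which the counts of the 18 include, so the pools are not alike.

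The 5 genes were Zscan4c, Zscan4b, Zscan4d, Zscan4e and Usp17le, so 4 of them are copies of 1 family. Zscan4c was above 4.84 on all 4 arrays, but the other 4 were dim on all arrays except the one with CBFA2T. Their differences therefore start from values below the filter. Zscan4a, also of the Zscan4 family, was above 4.84 on every array and was not past 2-fold. It was at 7.52 with CBFA2T, 6.93 with sea urchin PRDM14, 7.11 with mouse PRDM14 and 7.06 with the empty vector. Tcstv3, the added gene against mouse PRDM14, was dim on all 4 arrays. Usp17la (0.09) and Usp17ld (0.01), both measurable on every array, hardly differed between CBFA2T and the empty vector. The dim Tdpoz1 differed by -0.34 and the dim Zfp352 by -0.14. In the same comparison the dim Tcstv1 differed by 0.61, and Tmem92, measurable only through the CBFA2T array, by 0.56. The probe set of Duxf3, the Dux gene, was dim at 3.40 with CBFA2T, 3.70 with sea urchin PRDM14, 3.38 with mouse PRDM14 and 3.40 with the empty vector.

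On the array with sea urchin PRDM14 alone 0 of the 18 were past 2-fold against the empty vector, and the median was -0.04. Whether the Dppa2 or Dppa4 level bears on these genes was not tested. Each level is a mean over all cells of a culture, in which more cells of a 2-cell-like state and more RNA per cell cannot be told apart.

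Other genes of pluripotent cells did not move with Dppa2 as a group. Of 13 measured stem-cell-associated transcripts, Calcoco2 (1.37) and Fbxo15 (1.07), an F-box gene of embryonic stem cells, were past 2-fold between the 2 sea urchin arrays. This list, too, was chosen with earlier results of these data known, and Calcoco2 is the gene of nearest profile to Dppa2 above. The list median was 0.04. Fbxo15 was at 6.0 with CBFA2T and 4.93 with sea urchin PRDM14, and at 5.29 with mouse PRDM14 and 5.29 with the empty vector. Of 18 naive and core pluripotency genes, 0 were past 2-fold in any comparison. Their median was 0.04 between the 2 sea urchin arrays, and their largest difference was in Tfcp2l1, a naive pluripotency factor, at -0.67 for sea urchin PRDM14 against mouse PRDM14. Of 12 primordial germ cell genes 0 were past 2-fold. The largest difference among the measurable ones was in Ifitm3, at 0.34 for the CBFA2T array against mouse PRDM14, the comparison in which Dppa3 had its largest difference.

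Markers of fibroblasts and of primitive endoderm were read beside these values, and whether primitive endoderm cells were present was not tested. Of 18 fibroblast markers, 12 were above 4.84 on each of the 4 arrays, and none of the 18 was past 2-fold. The median level of all 18, dim ones included, was 5.73 with CBFA2T, 5.72 with sea urchin PRDM14, 5.70 with mouse PRDM14 and 5.73 with the empty vector. Fn1, which encodes fibronectin, had the largest difference, at -0.80 for the CBFA2T array against mouse PRDM14. Of 10 primitive endoderm markers 6 were measurable and none was past 2-fold. The median level of all 10, dim ones included, was 4.83 with CBFA2T, 4.85 with sea urchin PRDM14, 4.69 with mouse PRDM14 and 4.95 with the empty vector. The part of other cells in the Dppa values was not tested.

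**Figure D5:**
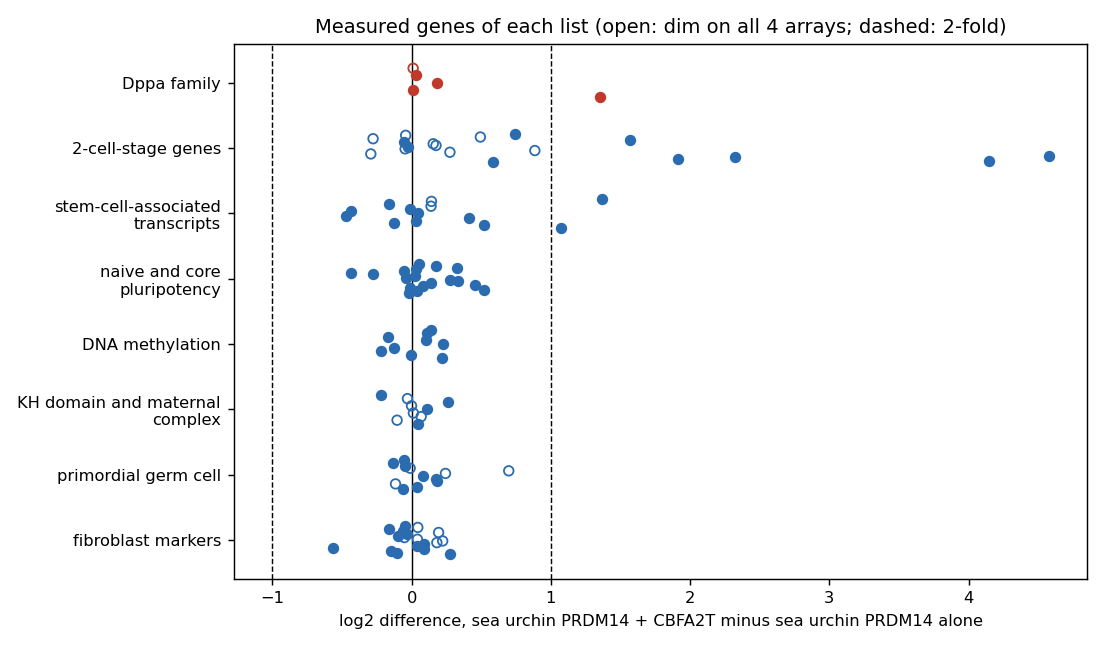
Each point is 1 measured gene, at its log2 difference between the array with sea urchin PRDM14 and CBFA2T and the array with sea urchin PRDM14 alone (horizontal axis), by gene list (vertical axis), with open points for genes that are dim on all 4 arrays. Dppa2 at 1.35 lies apart from the 4 other Dppa genes, and 5 of 18 2-cell-stage genes and 2 of 13 stem-cell-associated transcripts lie past the dashed 2-fold line.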

How the data were processed

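Total RNA was hybridised to 4 GeneAtlas arrays of 1 strip, 1 array per group. The authors deposited log2 values per probe set, which the submitters' processing notes credit to RMA. This method makes the arrays' distributions equal, so a shift of most genes would not show. For its version and for the genome build, the sources used here name none.

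Of 41345 probe sets, 23521 had 1 gene in the platform annotation, 1814 several and 16010 none, and 0 of the 1814 named a Dppa gene. The brightest probe set stood for a gene, and all 5 Dppa Entrez identifiers matched RefSeq's GRCm38.p6 table, which gave chromosomes and neighbours. Differences were called at 2-fold. Named genes were the members, the 5 nearest in profile to a member ranging over 2-fold, 3 neighbours on each side, and list genes past 2-fold or with the largest difference among measurable ones. Ooep, Uhrf1, Duxf3, Pou5f1 and Gdf3 were shown for their role or place. Tcstv3, Zscan4c and Gm2022 were shown in counts. Usp17la, Usp17ld, Tdpoz1, Zfp352, Tcstv1, Tmem92 and Zscan4a were shown after their values were seen. Members and lists were chosen with earlier results of these data known. Alternatives were a 1.5-fold threshold, cyclic loess, the mean of probe sets, median centring, no filter and a filter at 5.65. Python 3.11.15, pandas 2.3.3, R 4.3.3 and limma 3.58.1 were used.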

Additional observations from a re-analysis of the deposited data

How the results depend on the processing

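Dppa2 stayed the 1 member past 2-fold in the 3 comparisons of the CBFA2T array, and 0 members were past it in the other 3, with a 1.5-fold threshold, cyclic loess, the mean of all probe sets and arrays centred on their medians. The 30 member differences moved by at most 0.039 after cyclic loess and 0.0138 after centring. The near-zero differences of Dppa1 (0.01) and Dppa4 (0.01) between the 2 sea urchin arrays became -0.0032 and -0.0036 after centring. Each Dppa gene has 1 probe set, so the mean of probe sets changes nothing for them. Over all genes, the CBFA2T array had 62 genes past the 1.5-fold threshold against sea urchin PRDM14, 89 against mouse PRDM14 and 99 against the empty vector, in place of 22, 22 and 25 at 2-fold. With the empty vector as the base, there were 60 for sea urchin PRDM14 and 55 for mouse PRDM14 in place of 4 and 10, and 62 in place of 7 for sea urchin against mouse PRDM14. No filter, the stricter filter, cyclic loess and the mean of probe sets kept all 6 counts within 1.5 times. No paired analysis was possible because each group has 1 array. With 1 array per group, no array can be left out, and no difference here has a replicate check.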
